A study of Homo sapiens with 6 samples.

Results

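ERK signalling switches on genes that restrain it. Of these feedback and output genes, 10 are described here after knockdown of PCIF1 in retinoic acid-treated neuroblastoma cells. They are the dual-specificity phosphatase genes DUSP1, DUSP4, DUSP5 and DUSP6, the inhibitor genes SPRY1, SPRY2, SPRY4 and SPRED1, and the ETS transcription factor genes ETV4 and ETV5. The genes were listed by name, and the Ensembl identifiers of the authors' deposited table were matched to symbols without their version. Of the 10 genes, 9 had a row among the 13885 genes of that table, and SPRY1 was not analysed here.

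The 3 siPCIF1 samples received a small interfering RNA (siRNA) to PCIF1 by lipid transfection for 24 h, while the 3 siScramble samples received a scrambled one. All 6 samples were wild-type BE(2)-C cells, an established human neuroblastoma line, and all were then differentiated for 4 days with 10 µM ATRA, all-trans retinoic acid, renewed each day. ATRA pushes such cells towards a neuronal form. PCIF1 is the enzyme that methylates adenosine next to the mRNA cap, giving m6Am. A single siRNA against PCIF1 was used and every sample received ATRA, so effects of PCIF1 loss and other effects of that siRNA cannot be told apart, nor can cells without ATRA be compared. The labels do not say that the samples of a group were separate cultures, so the p-values measure the spread between these samples.

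In the ERK cascade, growth factor receptors activate RAS through adaptor proteins, RAS recruits RAF kinases, RAF phosphorylates MEK and MEK phosphorylates ERK. Active ERK phosphorylates cytosolic and nuclear proteins and raises transcription of a set of rapidly responding genes. Dual-specificity phosphatases remove the activating phosphates from ERK and, for some members, from p38 and JNK. Sprouty and SPRED proteins act further upstream, between receptor and RAF. ETV4 and ETV5 belong to the PEA3 group of ETS factors and carry part of the transcriptional output. In nerve cells and their precursors the same cascade is known for its role in growth, survival and differentiation.

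The table holds 1 finished DESeq2 comparison and no value per sample, so each result below is the authors' log2 fold change with its standard error (SE), and each mean is a mean of normalised counts over all 6 samples. Fold changes are given as siPCIF1 over siScramble. That direction was taken from PCIF1 itself, since the header of the authors' deposited table does not state it and its name, read plainly, would turn every sign round. With this reading PCIF1 stood at -0.82 (SE 0.19, DESeq2 adjusted p = 0.000167) by the authors' deposited table, which puts siPCIF1 at 56.6% of siScramble (95% interval 43.7 to 73.4%). Because PCIF1 set the direction, its own decrease is no check of the knockdown. PCF11, a factor of mRNA 3′ end formation that the study's title names, was at 0.35 (SE 0.16, DESeq2 adjusted p = 0.0667) and did not pass, per the authors' deposited table. The fold changes look shrunken towards 0, which the header does not state, so they may understate the true changes.

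Both ETS factor genes fell, 1 Sprouty gene fell and 1 phosphatase gene rose, while the other 5 genes did not pass the test. From the authors' deposited table, 3 of the 9 genes were lower (ETV5, ETV4 and SPRY2) and 1 was higher (DUSP4) at a DESeq2 adjusted p under 0.05. In all, 34.0% of the genes of the authors' deposited table passed, 16.3% as higher and 17.7% as lower. The share among these genes, 4 of 9 or 44.4%, is near that background and is not in itself a result about them. Their median log2 fold change was 0.07 against 0.01 for all genes of the authors' deposited table. In bulk RNA, less RNA per cell and fewer cells that carry it cannot be told apart.

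ETV5 had the largest change of the 9 genes. It is an ETS factor transcribed in response to ERK and fibroblast growth factor signalling. Its mean and fold change, from the authors' deposited table, imply group means of 987 normalised counts in siPCIF1 and 1932 in siScramble. Cells with siPCIF1 thus held 51.1% of the siScramble level (95% interval 42.3 to 61.7%). The log2 fold change of ETV5 was -0.97 (SE 0.14) with an adjusted p of 1.38e-10 from DESeq2, per the authors' deposited table. Its size exceeded that of 94.1% of all genes of the authors' deposited table. ETV5 (ENSG00000244405.7) lies on the minus strand of chromosome 3 from 186046308 to 186110318 in GRCh38 (GENCODE 29, as for all genes here) and has 13 exons in its main transcript.

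ETV4, the closest relative of ETV5 in this set, fell as well. Group means of 447 normalised counts in siPCIF1 and 704 in siScramble follow from its row of the authors' deposited table. Its log2 fold change there was -0.66 (SE 0.15, DESeq2 adjusted p = 7.71e-05), or 63.5% of the siScramble level (52.0 to 77.4%), by the authors' deposited table. The intervals of ETV4 and ETV5 overlapped (-0.94 to -0.37 and -1.24 to -0.70 on the log2 scale by the authors' deposited table), and the difference between the 2 genes was not tested. ETV4 (ENSG00000175832.12) lies on the minus strand of chromosome 17 from 43527844 to 43579620, and the helicase gene DHX8 overlaps it along all 51777 bases on the other strand. DHX8 was at -0.10 (SE 0.14, DESeq2 adjusted p = 0.625) with a mean of 921 normalised counts per the authors' deposited table. The library kit marks strand, but which strand setting was used for counting is not known here.

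DUSP4 went the other way. This nuclear phosphatase acts on ERK and also on JNK and p38. It had the highest mean of the 9 genes, with implied group means of 3304 normalised counts in siPCIF1 and 2188 in siScramble from the authors' deposited table. The log2 fold change of DUSP4 was 0.59 (SE 0.13, DESeq2 adjusted p = 5.69e-05) by the authors' deposited table, which is 1.51-fold (95% interval 1.27 to 1.80). DUSP4 (ENSG00000120875.8) lies on the minus strand of chromosome 8 from 29333064 to 29350668.

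The other phosphatase genes did not follow DUSP4 past the threshold. DUSP6, a cytosolic phosphatase with a strong preference for ERK, had implied group means of 2021 normalised counts in siPCIF1 and 1872 in siScramble from the authors' deposited table. Its log2 fold change was 0.11 (95% interval -0.16 to 0.38, DESeq2 adjusted p = 0.579) by the authors' deposited table. The ends of that 95% interval correspond to a 0.894-fold and a 1.30-fold level in siPCIF1, and larger changes are not excluded. DUSP6 (ENSG00000139318.7) lies on the minus strand of chromosome 12 from 89347232 to 89353271. DUSP5, a nuclear phosphatase specific to ERK on chromosome 10 (110497838 to 110511544, plus strand), had implied means of 134 normalised counts in siPCIF1 and 128 in siScramble and was listed at 0.07 (-0.30 to 0.43, DESeq2 adjusted p = 0.817) per the authors' deposited table. DUSP1, an immediate-early gene on chromosome 5 (172768090 to 172771195, minus strand) whose phosphatase also acts on p38 and JNK, had implied means of 212 normalised counts in siPCIF1 and 239.9 in siScramble. It was at -0.18 (-0.50 to 0.14, DESeq2 adjusted p = 0.422) by the authors' deposited table. The interval of DUSP4, 0.34 to 0.85 per the authors' deposited table, overlaps those of DUSP5 and DUSP6 and lies above that of DUSP1. No difference between phosphatase genes was tested, since the table gives no covariance between genes.

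**Figure D1:**
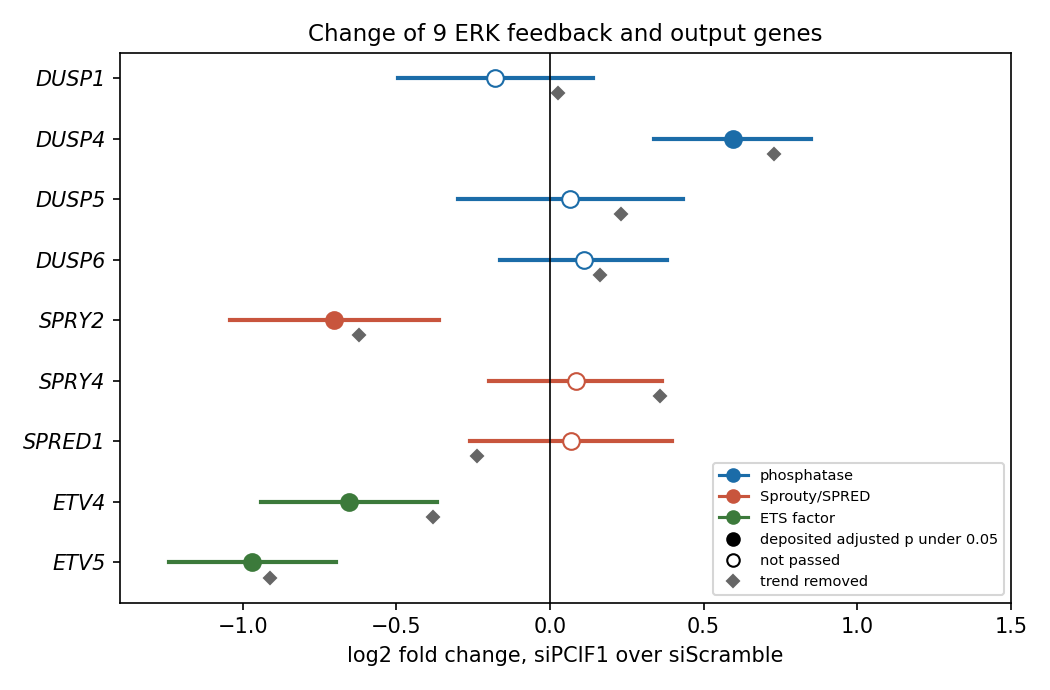
Log2 fold change (x axis, siPCIF1 over siScramble) of the 9 genes, coloured by role. Points are the authors' deposited values with 95% intervals, filled where the DESeq2 adjusted p was under 0.05. Grey diamonds are the values after subtraction of the trend on GC content, lengths and mean count. ETV5, ETV4 and SPRY2 lie below 0 at -0.97, -0.66 and -0.70 and DUSP4 lies above 0 at 0.59, and the intervals of the other 5 genes include 0.

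Of the 3 measured Sprouty and SPRED genes, SPRY2 fell and the others did not pass. SPRY2 is an inhibitor of receptor tyrosine kinase signalling that binds adaptor and RAF proteins. It had implied group means of 375 normalised counts in siPCIF1 and 609 in siScramble from the authors' deposited table. The authors' deposited table placed it at -0.70 (SE 0.17, DESeq2 adjusted p = 0.000418), which is 61.5% of the siScramble level (48.6 to 77.8%). SPRY2 (ENSG00000136158.11) lies on the minus strand of chromosome 13 from 80335976 to 80340951. SPRY4, a relative of SPRY2 that also blocks receptor signalling to RAF, lies on chromosome 5 (142310427 to 142326455, minus strand) and had implied means of 1406 normalised counts in siPCIF1 and 1327 in siScramble. It was at 0.08 (95% interval -0.20 to 0.37, DESeq2 adjusted p = 0.696) by the authors' deposited table. SPRED1, which brings the RAS inhibitor neurofibromin to the membrane, lies on chromosome 15 (38252326 to 38357249, plus strand) and had implied means of 424 normalised counts in siPCIF1 and 404 in siScramble. It was at 0.07 (-0.26 to 0.40, DESeq2 adjusted p = 0.789) per the authors' deposited table. The interval of SPRY2, -1.04 to -0.36 by the authors' deposited table, lies below those of SPRY4 and SPRED1; the difference was not tested.

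**Figure D2:**
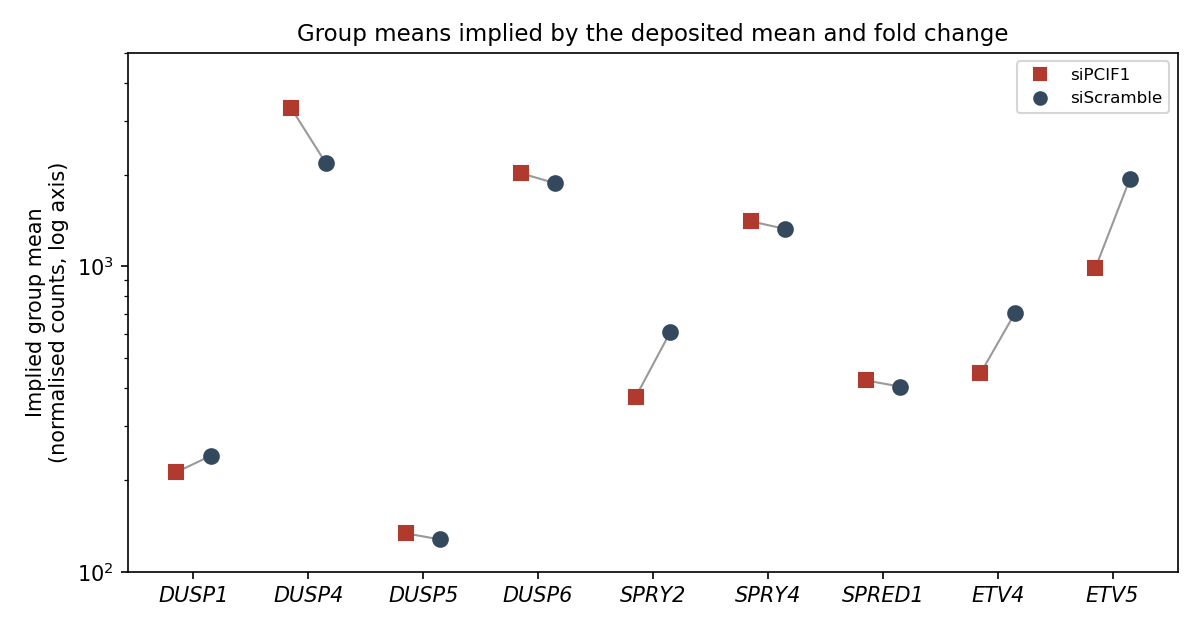
Group means implied by the deposited mean and log2 fold change of each gene, in normalised counts on a log axis, with siPCIF1 as red squares and siScramble as dark circles. The squares of ETV5 (987 against 1932), ETV4 (447 against 704) and SPRY2 (375 against 609) lie below their circles and the square of DUSP4 (3304 against 2188) lies above.

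Levels differed over a wide range between the genes. Per kilobase of main transcript, the mean normalised count over all samples was 575 for SPRY4, 496 for DUSP4, 442 for DUSP6 and 355 for ETV5, computed from the authors' deposited table. ETV4 followed at 237, SPRY2 at 182 and DUSP1 at 112 mean normalised counts per kilobase from the authors' deposited table. SPRED1 and DUSP5 came last at 53.2 and 51.1, close to the 55.6 that was the median of all genes of the authors' deposited table on this scale. The place of SPRY4 depends on the transcript, since with its longest coding transcript its level was 277, and no other gene of the 9 changed. The table gives no spread of the mean, so neighbours in this order could not be compared. The 4 genes that passed lay between the 78.9th and 91.7th percentiles of this level per the authors' deposited table, and SPRY4 and DUSP6, which did not pass, lay at the 92.8th and 90.9th.

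**Figure D3:**
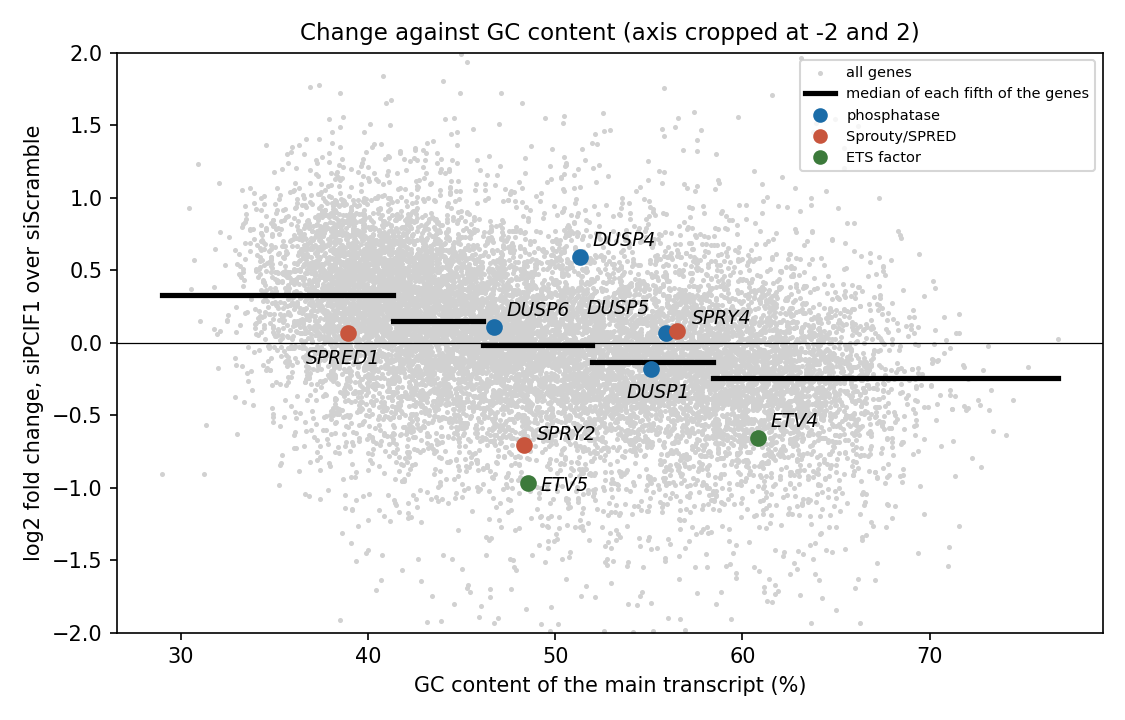
Log2 fold change (y axis, siPCIF1 over siScramble) against GC content of the main transcript (x axis, percent). Grey points are all genes of the deposited table with a main transcript (40 lie beyond the y axis), black bars are medians of 5 equal groups of genes by GC content, and coloured points are the 9 genes by role. The medians run from 0.33 at the GC-poor end to -0.24 at the GC-rich end; ETV5 and SPRY2 lie well below, and DUSP4 well above, the medians of their groups.

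Fold changes in the whole table moved with base composition. The median log2 fold change was 0.33 in the GC-poorest of 5 equal groups of genes and -0.24 in the GC-richest, from the authors' deposited table. GC content of the main transcript ran from 38.9% for SPRED1 to 60.8% for ETV4 among the 9 genes, around a median of 48.8% for all genes. After a fitted trend on GC content, lengths and mean count was subtracted from the fold changes of the authors' deposited table, 25.3% of genes passed, 12.4% as higher and 12.8% as lower. The 4 genes passed again in the same direction: ETV5 at -0.91, SPRY2 at -0.62, DUSP4 at 0.73 and ETV4 at -0.38, computed from the authors' deposited table. ETV4 lost most: the fitted part was -0.28 for ETV4, against -0.06 for ETV5 and -0.08 for SPRY2, and 0.0401 was the adjusted p left for ETV4 (from the DESeq2 SE). SPRY4 moved up to 0.36, just short of the threshold (adjusted p = 0.0519, from the DESeq2 SE of the authors' deposited table). DUSP1 turned from below 0 to 0.025 and SPRED1 from above 0 to -0.24, neither past the threshold, when the trend was removed from the authors' deposited table.

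The gene models of the set fall into 2 kinds. The phosphatase and Sprouty genes are compact, with 2 to 4 exons in the main transcript and gene lengths from 3106 bases (DUSP1) to 17605 bases (DUSP4), against medians of 8 exons and 28973 bases for all genes of the authors' deposited table. ETV4, ETV5 and SPRED1 are longer, at 51777, 64011 and 104924 bases. The genes that passed by the authors' deposited table came from both kinds. The 3′ UTR of the main transcript ran from 672 bases for DUSP1 to 5585 for SPRED1.

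Sequence around the gene starts is shown because PCIF1 methylates adenosine when it is the first transcribed base. RefSeq promoter entries (GRCh38.p14) were found for 5 of the 9 genes, with 3 starts for SPRY2; DUSP4, DUSP5, ETV4 and ETV5 are named only. Each line gives 20 bases on either side of a start, 5′ to 3′ on the strand of the gene, with the first transcribed base in capitals.
DUSP1, chr5:172771175-172771215, minus strand: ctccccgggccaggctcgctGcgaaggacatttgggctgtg
DUSP6, chr12:89352481-89352521, minus strand: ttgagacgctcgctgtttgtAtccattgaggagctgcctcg
SPRY2, chr13:80341106-80341146, minus strand: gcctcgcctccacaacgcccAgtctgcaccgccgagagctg
SPRY2, chr13:80340088-80340128, minus strand: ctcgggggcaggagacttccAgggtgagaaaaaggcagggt
SPRY2, chr13:80339639-80339679, minus strand: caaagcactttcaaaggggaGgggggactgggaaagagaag
SPRY4, chr5:142324227-142324267, minus strand: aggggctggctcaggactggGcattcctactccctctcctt
SPRED1, chr15:38252816-38252856, plus strand: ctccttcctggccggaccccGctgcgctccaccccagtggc

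Adenosine was the first base at the DUSP6 start and at 2 of the 3 SPRY2 starts, and guanosine at the starts of DUSP1, SPRY4 and SPRED1 and at the other SPRY2 start. Among 14402 RefSeq starts of genes of the authors' deposited table, 46.2% began with A, against 28.6% of the GENCODE 29 main transcripts of 11798 coding genes. SPRY2 fell and DUSP6 did not pass by the authors' deposited table, and both have a RefSeq start at A. The first base depends on the start chosen. In GENCODE 29 the main transcripts of DUSP6, SPRY4 and SPRED1 start 770, 793 and 510 bases away, with thymine for DUSP6, adenine for SPRY4 and cytosine for SPRED1 as the first base, whereas those of DUSP1 and SPRY2 start at a RefSeq start with G. Which start these cells use was not measured.

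Promoters were also searched, on both strands, for 4 words. These were the cAMP response element TGACGTCA, the AP-1 word TGACTCA, the ETS factor word CCGGAAGT and the TATA box word TATAAA; none contains another. Of the 5 genes with an entry, DUSP1 held a cAMP response element and a TATA box, at 125 and 30 bases before its start, and the others held none of the 4 words. Among all genes with an entry the cAMP response element was held by 4.01%, the TATA box word by 8.16%, the AP-1 word by 4.65% and the ETS factor word by 10.3%. The stretch with the cAMP response element in capitals is shown because it is the site through which DUSP1 is known to respond to cAMP; it reads the same on both strands.
DUSP1, chr5:172771293-172771340, minus strand: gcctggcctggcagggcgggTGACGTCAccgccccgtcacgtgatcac

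The 3′ UTRs of the main transcripts were searched for 5 words on the sense strand. TCAAGT was searched because the fold changes of the whole table differ with it: the median was 0.10 for genes with it and -0.05 for genes without it, and -0.02 and 0.03 after the trend was subtracted, from the authors' deposited table. It was found in 2 of the 9 main 3′ UTRs, those of DUSP1 and SPRED1, against 31.2% of all genes with a 3′ UTR. Both also held the longer ATCAAGT (8.88% of all genes) and none of the 9 held TCAAGTA (9.35%). Neither gene passed. The genes that passed, ETV5, ETV4 and SPRY2, which fell, and DUSP4, which rose, hold no TCAAGT there. The AU-rich word ATTTA, known from unstable mRNAs, occurred in 7 of the 9, against 70.4% of all genes, and was absent from DUSP5 and ETV4. The longer ATTTATTTA, which contains it, occurred only in DUSP1 among the 9, against 7.17% of all genes. Fold changes of the whole table differed with both of these words as well. The median was 0.08 with ATTTA and -0.17 without it, from the authors' deposited table. For ATTTATTTA it was 0.22 with the word and -0.02 without. After the trend was subtracted the medians were 0.02 and 0.02 for ATTTA and 0.04 and 0.02 for ATTTATTTA. The sites are shown with the word in capitals and 10 bases on either side.
DUSP1, TCAAGT at base 216 of the 3′ UTR: agtgggtacaTCAAGTccatctgaca
DUSP1, ATTTATTTA at base 103: gctggtccttATTTATTTAacttcacccg
SPRED1, TCAAGT at base 5095: ttttttatatTCAAGTcagtttcatc
SPRED1, TCAAGT at base 5339: attcttcacaTCAAGTtaatacccac

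Other genes of the ERK pathway were described from 10 lists by role, with 107 of 122 listed genes measured. Of these, 16 rose and 27 fell per the authors' deposited table, or 40.2% against the 34.0% of all genes. With the trend removed, 29 of the 107 passed, 21 of them among those 43 and in the same direction. The lists are small, and their counts are to be read against the 16.3% of all genes that were higher and the 17.7% that were lower per the authors' deposited table.

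All 7 measured relatives of the phosphatases, and both SPRED2 and SPRED3, lay below 0 by the authors' deposited table, but few passed. This shared sign was not tested. The share of the phosphatase relatives that passed, 28.6%, was near the 34.0% of all genes. Of 7 further dual-specificity phosphatase genes, 2 fell and 0 rose by the authors' deposited table, with a median of -0.26 (DESeq2, with 2 at an unadjusted p under 0.05). Only DUSP10 passed with the trend removed, and the median was then -0.20. DUSP8 then lay above 0, at 0.18. DUSP10, a phosphatase of p38 and JNK, was at -0.41 (SE 0.17, DESeq2 adjusted p = 0.0448) and DUSP3 at -0.33 (SE 0.14, DESeq2 adjusted p = 0.0453) per the authors' deposited table; DUSP3 did not pass with the trend removed. DUSP7 and DUSP14 were at -0.38 and -0.26 by the authors' deposited table, short of the threshold, and DUSP8 and DUSP16 were at -0.0012 and -0.0030. Neither of the 2 relatives SPRED2 and SPRED3, at -0.06 and -0.42, passed by DESeq2 (the authors' deposited table), where 1 had an unadjusted p under 0.05.

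Further ETS factor genes went both ways; no difference from ETV4 and ETV5 was tested. Of 13 measured, 4 rose and 4 fell by the authors' deposited table, with a median of 0.04. Subtracting the trend left 2 higher and 3 lower and a median of -0.14. ETS2, GABPA, ELK4 and ETV1 were at 0.67, 0.89, 0.56 and 0.54 per the authors' deposited table, with SEs from 0.14 to 0.19. ETV1, the remaining gene of the PEA3 group, thus rose where ETV4 and ETV5 fell, but did not pass with the trend removed (0.22, adjusted p = 0.298 from the DESeq2 SE). ETS1, ELK1 and the repressor gene ERF were at -0.68, -0.51 and -0.48 by the authors' deposited table, and ELF4 at -1.11 (SE 0.29) on a mean of 18.6 normalised counts. ELK4, ELK1 and ERF did not pass with the trend removed either, while ELF1, at -0.26 per the authors' deposited table, then passed at -0.62.

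Among other output genes of the cascade, 7 of 15 fell and 1 rose per the authors' deposited table, with a median of -0.39. Once the trend was subtracted, 4 fell and 1 rose, and the median was -0.12. The transcription factor MYC was at -2.22 (SE 0.19) and PHLDA1, a gene of common ERK activity scores, at -0.82 (SE 0.14, DESeq2 adjusted p = 4.96e-08) by the authors' deposited table. CCND1, which encodes cyclin D1, was the one that rose, at 1.14 (SE 0.14, DESeq2 adjusted p = 7.42e-15) per the authors' deposited table. FOS, the activity-regulated gene ARC, the neuropeptide precursor VGF, UPP1 and HMGA1 were at -0.62, -0.61, -0.71, -0.50 and -0.43 by the authors' deposited table, and of these FOS alone passed with the trend removed. IL17RD, at -0.38 per the authors' deposited table, passed only with the trend removed (-0.58). EGR1, an immediate-early gene, was at -0.07 (DESeq2 adjusted p = 0.839) per the authors' deposited table, short of the threshold.

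**Figure D4:**
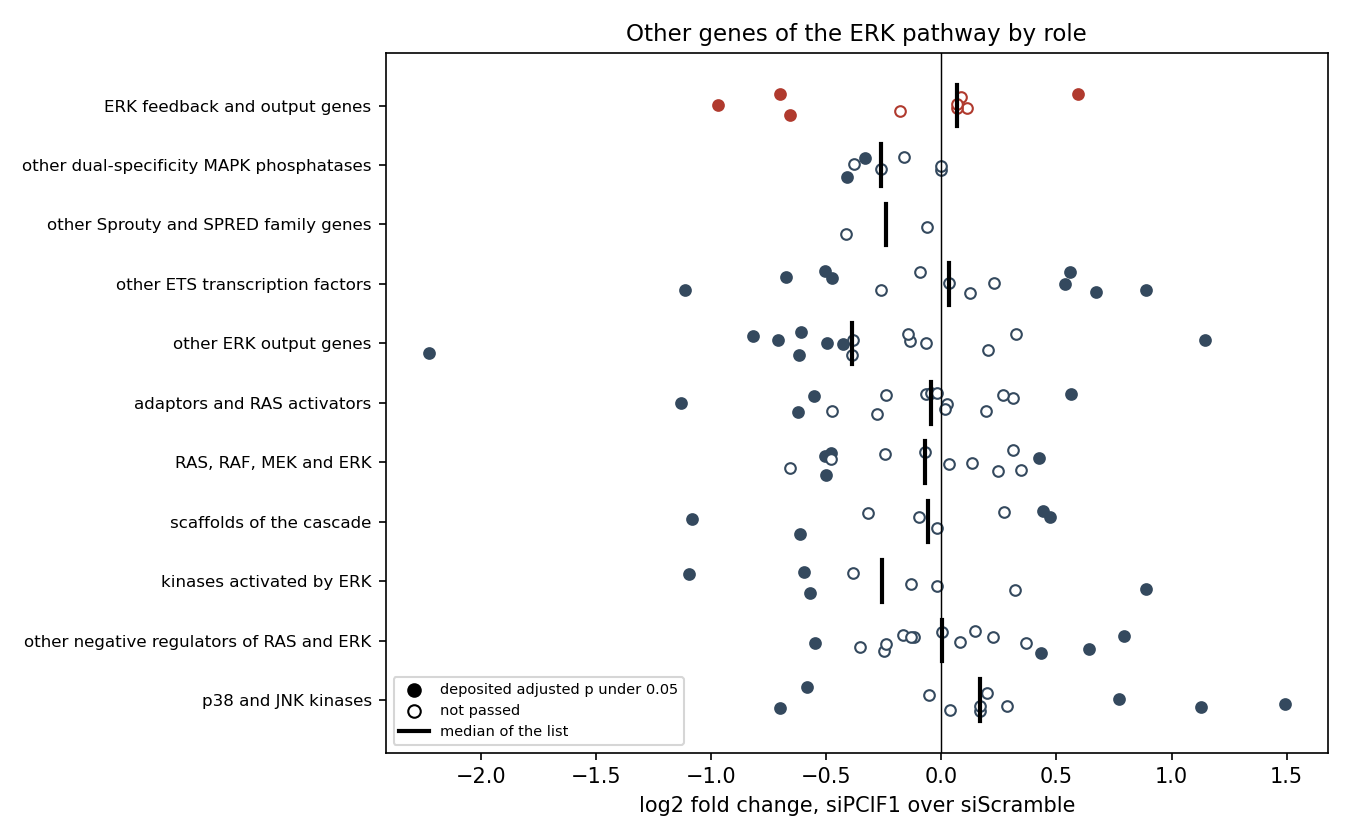
Log2 fold change (x axis, siPCIF1 over siScramble, authors' deposited values) of the 9 genes (red) and of 107 other ERK pathway genes in 10 lists by role (dark). Filled points had a DESeq2 adjusted p under 0.05, open points did not, vertical position within a row is arbitrary and black bars are medians. Points of most rows lie on both sides of 0, with MYC at -2.22 and MAP2K6 at 1.49 as the extremes.

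The share of core kinase genes that passed, 30.8%, was near the 34.0% of all genes of the authors' deposited table. Of the 13 RAS, RAF, MEK and ERK genes, 1 rose and 3 fell by the authors' deposited table, with a median of -0.07. Subtraction of the trend gave 1 higher and 1 lower, with a median of 0.03. NRAS was at 0.42, and HRAS and both MEK genes, MAP2K1 and MAP2K2, were at -0.51, -0.48 and -0.50 per the authors' deposited table, with SEs from 0.14 to 0.19. None of these 4 passed with the trend removed. MAPK3, which encodes an ERK kinase, was at 0.31 (SE 0.18, DESeq2 adjusted p = 0.178) by the authors' deposited table, short of the threshold. With the trend subtracted from the authors' deposited table it passed at 0.64 (adjusted p = 0.00346, from the DESeq2 SE).

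Among adaptors and scaffolds, SHC2 and PEA15 were lowest. Of 15 adaptors and RAS activators, 1 rose and 3 fell per the authors' deposited table (median -0.05). The phosphatase gene PTPN11, an activator of RAS signalling, was at 0.57, and SHC2, RAPGEF1 and SHC1 were at -1.13, -0.62 and -0.55 by the authors' deposited table. Of 8 scaffold and related genes, 2 rose and 2 fell per the authors' deposited table (median -0.06). PEA15, which holds ERK in the cytoplasm, was at -1.08 (SE 0.16, DESeq2 adjusted p = 6.77e-10) and KSR1, a scaffold of RAF and MEK, at -0.61, while SHOC2 and LAMTOR3 were at 0.47 and 0.44 by the authors' deposited table. After the trend was subtracted, 1 adaptor gene rose and 3 fell, while 3 scaffold genes passed, each of them lower. SHC1, SHOC2 and LAMTOR3 then did not pass, and GAB1 and IQGAP1, at -0.28 and -0.32 by the authors' deposited table, did, at -0.73 and -0.47.

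Kinases activated by ERK went both ways within 1 family. Of 8 genes, 1 rose and 3 fell per the authors' deposited table, with a median of -0.26. The trend-subtracted values gave 1 higher and 2 lower, with a median of -0.32. The ribosomal S6 kinase genes RPS6KA2 and RPS6KA6 were at -1.09 (SE 0.14) and 0.89 (SE 0.17) by the authors' deposited table, with DESeq2 adjusted p of 1.32e-12 and 4.13e-06. RPS6KA1 and MKNK2, which encodes a kinase of the cap-binding factor eIF4E, were at -0.57 and -0.60 per the authors' deposited table; neither passed once the trend was subtracted. RPS6KA5, at -0.02 by the authors' deposited table, then passed at -0.58.

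Other negative regulators of the cascade differed between the settings. Of 15 genes, 3 rose and 1 fell by the authors' deposited table, with a median of 0.0032. With the trend removed 1 rose and 2 fell, and the median was 0.04. The rises were those of RASA1, RASA2 and NF1, which encode proteins that switch RAS off, at 0.80, 0.64 and 0.43 per the authors' deposited table, with SEs from 0.17 to 0.21. ERRFI1, a feedback inhibitor of the epidermal growth factor receptor, was at -0.55 (SE 0.20) by the authors' deposited table. RASA2 and NF1 did not pass with the trend removed, whereas CBLB, a ubiquitin ligase gene at -0.35 per the authors' deposited table, then passed at -0.59 (adjusted p = 0.000971, from the DESeq2 SE). The partner of NF1 in this set, SPRED1, did not pass in either setting.

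Genes of the p38 and JNK kinases, which some of the phosphatases also control, differed as well. Of 11, 3 rose and 2 fell per the authors' deposited table, with a median of 0.17. After subtraction of the trend the 3 that rose still passed and the others did not, and the median was 0.05. MAP2K6, an activator of p38, was at 1.49 (SE 0.23) and the neuronal JNK gene MAPK10 at 0.77 (SE 0.16) by the authors' deposited table. MAPK13 was at 1.13 (SE 0.29) on a mean of 15.3 normalised counts per the authors' deposited table. The p38 genes MAPK11 and MAPK12 were at -0.70 and -0.58 by the authors' deposited table; neither passed once the trend was subtracted.

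The cell line carried the markers its label calls for. All 9 adrenergic neuroblastoma markers and all 7 neuronal markers were measured, with means from 43.3 to 4718 and from 139 to 8104 normalised counts per the authors' deposited table. Of markers of other cells by the authors' deposited table, 3 of 5 fibroblast, 2 of 4 Schwann cell, 1 of 5 blood, 1 of 4 epithelial and 0 of 3 endothelial genes were measured. The defining genes SOX10, PTPRC and CD3E were not analysed here. S100B and CD14 rose by 1.21 and 0.90 on the log2 scale per the authors' deposited table. The part of such cells in the results was not tested. Of other genes that overlap the members, AC024909.2 across DUSP6 and SPRY4-AS1 across SPRY4 had means of 16.0 and 20.5 normalised counts, and DGKG, which shares 4651 bases with ETV5 on the same strand, was at -0.0069 (SE 0.16) on a mean of 196 by the authors' deposited table.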

How the data were processed

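RNA of 6 samples was analysed through 1 table, the authors' deposited DESeq2 comparison of 3 siPCIF1 with 3 siScramble samples. Per the labels' protocols, DNase-treated total RNA was made into poly(A)-selected, stranded libraries. Per the submitters' processing notes, hg38, STAR 2.7.10a, cutadapt 3.7, HTSeq, bcl2fastq 2.20, deepTools and DESeq2 were used by the authors, without roles given. Per the file headers, the authors deposited a mean normalised count (a signal that is never negative), a log2 fold change and its SE, a Wald score and a p-value with its adjusted p-value, tested across all genes. The adjusted values equal a Benjamini-Hochberg adjustment over the 13885 listed genes. Depth per library is unknown; the means sum to 1.41e+07, and the SE ran from 0.12 to 0.30.

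Nothing was refitted. Intervals are 95% normal intervals from the SE. SEs stop at 0.295, as under shrinkage towards 0 with a normal prior, so printed changes may understate true ones; unshrunken values were estimated on that reading with a prior SD of 0.59. Implied group means assume groups of equal size. The trend was a least squares fit of the fold change on GC content, log2 transcript and gene length and log2 mean count, each with its square; residuals over their SE were adjusted again. GENCODE 29 matched 13877 identifiers. Main transcripts were ranked by APPRIS, basic tag, support level and length. Words and starts were read from GENCODE 29 and RefSeq.

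The members, lists and tests were chosen with earlier results of these data known. Named genes were all members, PCIF1, PCF11, overlapping genes and, per list, up to 4 genes by smallest adjusted p plus those needed for the counts; EGR1, MAPK3, DUSP8, DUSP16, S100B, CD14 and the genes that passed only with the trend removed were named after their values were seen. Some items are not reported here. Alternatives covered the threshold, a minimum change, the null value, centring, a minimum mean, rescaled statistics, the trend and shrinkage. The steps were checked on simulated data. Python 3.11.15, numpy 2.4.6, pandas 2.3.3, scipy 1.17.1 and matplotlib 3.10.9 were used.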

Additional observations from a re-analysis of the deposited data

How the results depend on the processing

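Direction and call of the 9 genes held under a threshold of 0.1 or 0.01, after centring on the median, in genes whose mean reached 100 and with fold changes estimated without shrinkage (ETV5 at -1.03, SPRY2 at -0.78, ETV4 at -0.70 and DUSP4 at 0.63). After subtraction of the fitted trend on GC content, lengths and mean count, DUSP1 turned to 0.025 and SPRED1 to -0.24, neither called. With a minimum log2 change of 1, 0 of the 9 were called in either direction: DUSP4 (0.59), SPRY2 (-0.70), ETV4 (-0.66), ETV5 (-0.97) and PCIF1 (-0.82) dropped out by construction. Against an absolute change of 0.3, 1 fell (ETV5) and 0 rose, with DESeq2-based adjusted p of 0.176 for DUSP4, 0.158 for SPRY2, 0.125 for ETV4 and 0.0658 for PCIF1, and 4 at an unadjusted p under 0.05. With the Wald statistics divided by their robust SD of 2.44, 0 of the 9 passed in either direction (1 at an unadjusted p under 0.05), with adjusted p from the DESeq2 statistics of 0.204 for ETV5, 0.689 for DUSP4, 0.708 for ETV4, 0.787 for SPRY2 and 0.744 for PCIF1.

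Over all genes, 2263 rose and 2453 fell. The rises came to 1489 at a threshold of 0.01. Rises and falls came to 282 and 449 with a minimum change of 1, 537 and 723 against 0.3, and 21 and 114 with rescaled statistics. In the 10 lists, 16 rises and 27 falls became 3 and 5 with a minimum change of 1, 6 and 5 against 0.3, and 0 and 1 with rescaled statistics; 10 rises were left with the trend removed. Of 180 counts per list and setting, 116 stayed within 1.5 times the main count. These 116 include counts that were 0 and stayed 0, such as rises among the further dual-specificity phosphatase genes and among SPRED2 and SPRED3. The longest 3′ UTR held TCAAGT in the same 2 genes. No paired analysis was possible because the table holds no values per sample, and no replicate could be left out for that reason.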
